A study of Homo sapiens with 10 samples.

Results

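The genes of the cytosolic ribosomal proteins were taken by symbol: RPL or RPS with a number and an optional A, L or X, together with RPLP0, RPLP1, RPLP2 and RPSA. This rule found 83 genes among the 58381 gene rows of each library, 49 of the large subunit and 34 of the small subunit. RNA was sequenced from GIST-T1, a human cell line established from a metastatic gastrointestinal stromal tumour (GIST) with intact succinate dehydrogenase. The control cells had the genotype label WT, and the 4 derivative lines InsE, InsF, InsG and InsH each had a disrupted CTCF insulator, a DNA element at which the protein CTCF bounds chromosome loops. All 5 groups had 2 libraries of polyadenylated RNA from cells grown in the same medium with serum, and no agent was named. The labels do not give the site edited in each line, whether a line was a single clone, or if a group's libraries were from separate cultures.

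In the ribosome, the small subunit reads the messenger RNA and the large subunit joins amino acids, and each ribosomal protein is needed in about the same number of copies. The mRNAs of these proteins typically begin with a C followed by a run of C and T (the 5′ terminal oligopyrimidine tract, TOP), through which the growth kinase mTOR and the RNA-binding protein LARP1 control their translation as a group. The values below are RNA levels, so neither translation nor protein was measured. In cultured cells, a difference in the share of cells expressing a gene and a difference in RNA per cell cannot be told apart.

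The sequences of the starts of 10 genes on which the results turn are shown because this tract is what the mRNAs of the family have in common. Each line gives 10 bases before and 20 bases from the RefSeq gene start onward, read 5′ to 3′ on the gene's strand in GRCh38.p14, with the unbroken run of C and T through the start in capitals.
RPL7A (chr9:133348208-133348237, forward strand): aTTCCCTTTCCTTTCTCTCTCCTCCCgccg
RPL29 (chr3:51995876-51995905, reverse strand): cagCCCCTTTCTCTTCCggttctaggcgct
RPS27 (chr1:153990752-153990781, forward strand): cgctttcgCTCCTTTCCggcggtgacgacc
RPS12 (chr6:132814559-132814588, forward strand): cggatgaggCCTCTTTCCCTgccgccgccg
RPL35A (chr3:197950180-197950209, forward strand): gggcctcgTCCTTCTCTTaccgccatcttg
RPS24 (chr10:78033853-78033882, forward strand): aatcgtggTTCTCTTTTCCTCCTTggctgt
RPL11 (chr1:23691769-23691798, forward strand): cctggcccataaggccctcggccggaagct
RPL32 (chr3:12841546-12841575, reverse strand): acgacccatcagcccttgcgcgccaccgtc
RPL6 (chr12:112411423-112411452, reverse strand): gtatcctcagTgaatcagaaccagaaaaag
RPS27L (chr15:63157458-63157487, reverse strand): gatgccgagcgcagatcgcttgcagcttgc

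Genes that fell in the lines (RPL7A, RPL29, RPS27), a gene that rose (RPS12) and genes highest in InsE (RPL35A, RPS24) all carried a run of C and T through the annotated start. In RPL11, RPL32, RPL6 and RPS27L the annotated start is not within such a run, and the RefSeq start need not be the start used in these cells. Of 79 genes tested below, 63 matched a RefSeq window of 250 bases before to 50 after the start. In 42 of the 63 (66.7%) the start was a C followed by at least 4 further C or T, against 4.04% of all 27305 windows. Allowing the start to lie within 5 bases of such a C gave 79.4% against 21.1%. The median run through the start was 10.0 bases, and the longest, in RPL7A, was 25 bases. The ETS-type motif CCGGAA on either strand was present in 54.0% of the windows against 17.6% of all windows, and in 56.5% of 69 windows of mitochondrial ribosomal protein genes. CACGTG, an E-box, was found in 4.76% against 7.43%, and TATAAA in 7.94% against 12%, on either strand in both cases. The motifs do not overlap one another in sequence, and a match describes letters only.

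Library totals were 30805146 and 20078653 expected counts (fragments per gene estimated by RSEM) in control, 22912425 to 42499885 in replicate 1 of the lines and 9399554 to 14833338 in replicate 2. All 8 GIST markers looked for were expressed in every library, KIT at 344 to 724 TPM and ANO1 at 289 to 520 TPM (transcripts-per-million, which corrects for transcript length). Of the 8 markers, 5 were lower and none higher for the mean of the lines (edgeR, median log2 change -0.37), where 14.5% of all genes were lower. In InsE 7 were lower and none higher (median -0.49), where 12.4% of all genes were lower. In InsF, InsG and InsH 4 were lower in each, where 11.3%, 10.5% and 9.46% of all genes were lower. In the same 3 lines 1, 0 and 1 were higher, where 10.9%, 9.86% and 8.95% of all genes were higher. The summed level of the 8 GIST markers was 1909 and 1892 TPM in control, 1205 and 1156 in InsE, 1387 and 1324 in InsF, then 1487 and 1399 in InsG and 1474 and 1406 in InsH, so every line library was below both control libraries. Of 17 markers of other cell types, DES (smooth muscle) was at 0, and PTPRC (leukocyte), PECAM1 (endothelial), CD3E (T cell) and CDH1 (epithelial) reached at most 0.1 TPM. CD68 (macrophage) reached 1.78 TPM and EPCAM (epithelial) 0.96 TPM. CDH5 and VWF (endothelial), MYH11 (smooth muscle) and CD14 (leukocyte) reached at most 0.56 TPM. The rest were at 4.7 TPM or more in every library. They were the epithelial KRT8 (15.1 to 24.7 TPM) and KRT18 (178 to 252 TPM), the smooth muscle gene ACTG2 (4.7 to 25.3 TPM), and the fibroblast genes PDGFRA (23.5 to 38.9 TPM), LUM (420.3 to 919 TPM) and THY1 (535 to 819 TPM). The 17 summed to 1532 and 1553 TPM in control, 1528 and 1610.0 in InsE and 1704 to 1832 in the 6 libraries of the other lines. Of the 11 of them tested, 2 were higher and 2 lower for the mean of the lines (edgeR), where 13.1% and 14.5% of all genes were. What part these marker differences had in the results below was not tested. The 4 replicate 1 libraries of the lines stood apart from the other 6 libraries in how reads of the family were divided among gene copies. Counts that were not whole numbers, the trace left by dividing reads, made up 69.9% to 75.6% of the detected ribosomal protein genes in those 4 libraries and 82.5% to 88.9% in the other 6. Among all detected genes the share was 30.2% to 34.4%. No label says whether those 4 libraries came from another sequencing run.

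Ribosomal protein genes made up 10.7% to 12% of all TPM in the 10 libraries. Of the 83 genes, 81 had a count in a control library, with a median control level of 1169 TPM over those 81, and 54 were above 1000 TPM. RPS27, a zinc-binding small-subunit protein, had the highest mean control level at 5624 TPM ± 150.3 (SD, n = 2), followed by RPS23, which lies at the decoding centre, at 5145 TPM ± 41.9. In the large subunit the highest were RPL8, near the peptidyl transferase centre, at 3116 TPM ± 19.6, RPL41, the smallest of the proteins, at 3006 TPM ± 5.0, and RPL15 at 2821 TPM ± 7.28. RPS21 came next in the small subunit at 2830.5 TPM ± 33.8. The lowest of the 79 genes tested below were the duplicate copies RPS27L at 66.2 TPM ± 4.98 and RPL39L at 159.9 TPM ± 0.573, followed by RPS28 at 165 TPM ± 0.856, RPL22 at 265 TPM ± 6.63 and RPS26 at 501 TPM ± 24.6. The other copies were close to 0: RPL3L had 28 counts over all 10 libraries, RPL10L and RPS10L had 4 each, and 1 further copy had 2. RPS10L is typed as a processed pseudogene in GENCODE release 29. These 4 genes fell below the expression filter, which left 79 genes for testing, 47 large and 32 small.

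The summed level of the family was highest in InsE and lowest in InsG. On the TPM scale the spread between lines was wider in the large subunit than in the small. Large-subunit genes held 6.34% and 6.34% of all TPM in the control libraries, 6.50% and 6.67% in InsE, 5.96% and 6.10% in InsF, then 5.82% and 5.98% in InsG, and 5.92% and 6.10% in InsH. Both InsE libraries were above both control libraries, and all 6 libraries of InsF, InsG and InsH were below them. Small-subunit genes held 5.03% and 4.99% in control, 5.17% and 5.31% in InsE, 4.97% and 5.04% in InsF, then 4.91% and 5.03% in InsG, and 4.98% and 5.07% in InsH. Here InsE was the 1 line with both libraries above both control libraries. Relative to control, the mean large-subunit sum was 1.04, 0.951, 0.931 and 0.948 in InsE, InsF, InsG and InsH, and the mean small-subunit sum was 1.05, 0.999, 0.992 and 1.003 in the same order. The ratio of large to small TPM was 1.26 and 1.27 in control, 1.26 and 1.26 in InsE, 1.20 and 1.21 in InsF, with 1.18 and 1.19 in InsG and 1.19 and 1.20 in InsH. No test was made of these sums. As a share of expected counts, the family held 3.28% and 3.28% in control, 3.60% and 3.64% in InsE, 3.23% and 3.24% in InsF, then 3.11% and 3.12% in InsG and 3.21% and 3.24% in InsH. On this scale the large-subunit mean relative to control ran from 1.10 in InsE to 0.927 in InsG, and the small-subunit mean from 1.11 to 0.982. The small-subunit sum of InsF and InsH lay above or below control depending on the scale, as given with the alternatives in the closing section.

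**Figure D1:**
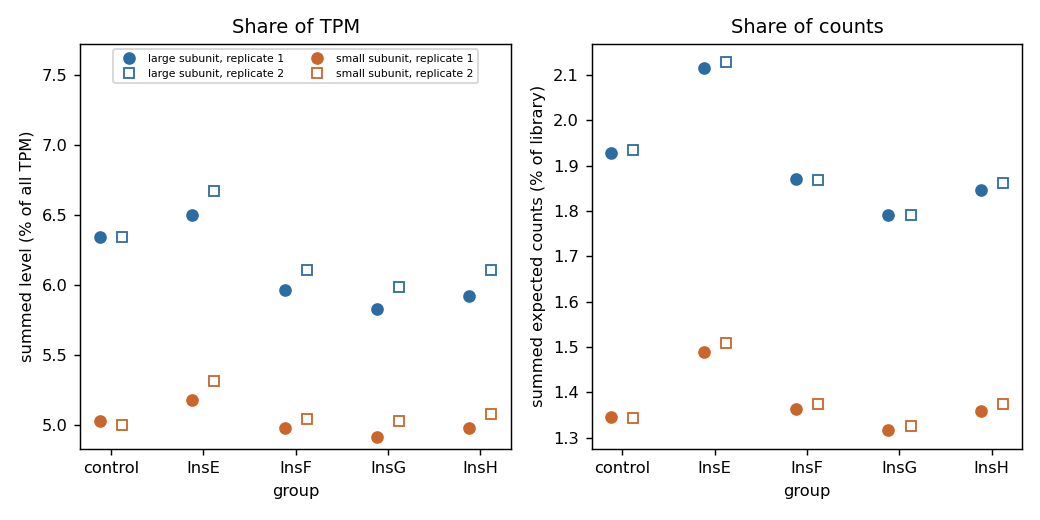
Summed level of the 49 large-subunit and 34 small-subunit genes in each library (x axis, the 5 groups), as a percentage of all TPM (left) and of all expected counts (right). Filled circles are replicate 1 and open squares replicate 2. InsE is highest on both scales for both subunits, and the large-subunit share of TPM is 5.82% to 6.10% in InsF, InsG and InsH against 6.34% in control. The y axes do not start at 0.

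Averaged over the 4 lines, a group of mostly large-subunit genes was lower than in control, by at most 25.4% (RPL7A). The test was edgeR's quasi-likelihood test on expected counts after TMM normalisation, with Benjamini-Hochberg adjustment over 15554 genes and a threshold of 0.05. For the mean of the lines, 23 of 79 ribosomal protein genes passed, 3 higher and 20 lower, where 27.6% of all genes passed (13.1% higher and 14.5% lower). By subunit, 1 large-subunit gene was higher and 15 lower, and 2 small-subunit genes were higher and 5 lower. The median log2 change was -0.07 over the 47 large-subunit genes and 0.02 over the 32 small-subunit genes, against 0.01 over all genes tested. The count rested on the control libraries, being 3 without control replicate 1 and 5 without control replicate 2, where 9.39% and 10.4% of all genes passed. With library sizes alone in place of TMM, 9 were higher and 9 lower, while limma on log2(TPM + 1) called 7 higher and 8 lower, so the predominance of lower calls depends on the scaling.

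RPL7A, a large-subunit protein whose gene (chr9:133348214-133351426, forward strand, hg38) also carries small nucleolar RNAs in its introns, fell most. Its level in CPM (counts-per-million after TMM) was 492 and 484 CPM in control, 388 and 433 in InsE, 343 and 388 in InsF, then 315 and 349.6 in InsG and 332 and 377 in InsH. Every line library was below both control libraries, and within each line replicate 1 was the lower. The log2 change was -0.42 (SE 0.067) for the mean of the lines (edgeR adjusted p = 0.00154), a fall of 25.4%, and it was -0.25 in InsE (adjusted p = 0.0652, not passing), -0.42, -0.56 and -0.46 in InsF, InsG and InsH. The calls in InsF and InsH were lost without control replicate 1 (edgeR adjusted p = 0.063 and 0.0522), and that in InsF also without InsF replicate 1 (0.0557).

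RPL29 (chr3:51993522-51995942, reverse strand), a small basic protein of the large subunit, was 247 and 253 CPM in control, 226 and 234 in InsE, 184 and 194 in InsF, with 165 and 179 in InsG and 179 and 191 in InsH. InsE lay just under control, and the other 3 lines were lower by a wider margin. The log2 change was -0.37 (SE 0.046) for the mean (edgeR adjusted p = 0.000361), -0.12 in InsE (adjusted p = 0.186), -0.40, -0.54 and -0.43 in InsF, InsG and InsH. Its 3 calls in InsF, InsG and InsH, and that of the mean, held when each library was left out in turn.

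RPS27 (chr1:153990755-153992155, forward strand) was the 1 ribosomal protein gene called lower in all 4 lines. Its level was 588 and 568 CPM in control, 518 and 497 in InsE, 487 and 469.9 in InsF, then 462 and 425 in InsG and 470.2 and 447 in InsH. All 8 line libraries were below both control libraries, with InsE nearest to control and InsG farthest. The log2 change was -0.29 (SE 0.043) for the mean (edgeR adjusted p = 0.00104), -0.19 in InsE (adjusted p = 0.0384), -0.27, -0.38 and -0.33 in InsF, InsG and InsH. The InsE call was lost without either control library (edgeR adjusted p = 0.22 and 0.135), without either InsE library (0.0816 and 0.188), and without InsF replicate 1 (0.0567) or InsH replicate 1 (0.0514), and with scaling by library sizes alone (0.121). The InsF call was lost without control replicate 1 (0.0835) or InsF replicate 2 (0.0517).

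RPL36A, a large-subunit protein close to the exit site of transfer RNA, was 214 and 208 CPM in control, 198 and 174 in InsE, 173 and 168 in InsF, with 162 and 148 in InsG and 169 and 160.0 in InsH. Its level in every line library was below both control libraries. The log2 change was -0.32 (SE 0.054) for the mean (edgeR adjusted p = 0.00215, and 0.0523 without control replicate 1). RPL28 was 301 and 297 CPM in control, 251 and 284 in InsE, 231 and 259 in InsF, then 208 and 232 in InsG and 225 and 261 in InsH, replicate 2 being the higher in each line. Its log2 change was -0.30 (SE 0.071) (edgeR adjusted p = 0.0124), a call lost without either control library (0.122 and 0.0915) and with limma on TPM (0.0996).

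In InsF, InsG and InsH most of the called genes were lower. In InsF 17 of 79 passed (2 higher, 15 lower) where 22.3% of all genes passed (10.9% higher, 11.3% lower). In InsG 24 passed (1 higher, 23 lower) where 20.3% of all genes passed (9.86% higher, 10.5% lower). In InsH 17 passed (1 higher, 16 lower) where 18.4% of all genes passed (8.95% higher, 9.46% lower). Of the lower calls, 11 of 15 in InsF, 18 of 23 in InsG and 12 of 16 in InsH were large-subunit genes. The median log2 change over all 79 was -0.05 in InsF, -0.11 in InsG and -0.07 in InsH, against 0.01 over all genes in each. For the large subunit alone it was -0.10, -0.16 and -0.10.

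A group of 14 genes, of the 15, 23 and 16 lower calls, was called lower in InsF, InsG and InsH alike, among them RPL4, RPL6, RPL7A, RPL10A, RPL23, RPL29, RPL32, RPL35, RPL36A, RPLP1, RPS4X, RPS7 and RPS27. These 3 comparisons use the same control libraries, so the shared calls are not separate evidence. RPL4 lines the tunnel through which the new protein leaves, RPLP1 is part of the stalk that recruits translation factors, and RPS7 is a small-subunit protein mutated in some families with Diamond-Blackfan anaemia. RPS7 was 410.0 and 415 CPM in control, 387 and 395 in InsE, 354 and 351 in InsF, with 348 and 354 in InsG and 358 and 351 in InsH. It lay below both control libraries in all 8 line libraries, and its log2 changes were -0.23 (SE 0.043, adjusted p = 0.00537) in InsF, -0.23 in InsG, -0.22 in InsH and -0.08 in InsE (edgeR, adjusted p = 0.239 in InsE). Without control replicate 2 its adjusted p was 0.0558 in InsF, 0.0605 in InsG and 0.0729 in InsH (edgeR), and with limma on TPM it was 0.0754 in InsG and 0.0737 in InsH.

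The counts of these 3 lines were sensitive to single libraries. The share of all genes passing in the fits below is not given, and for the mean of the lines it fell as well without a control library. A lower count here does not show that this family was more sensitive than other genes. Without control replicate 1 and without control replicate 2 InsF had 2 and 3, InsG 8 and 9, and InsH 2 and 3. Leaving out a library of the line gave 4 (without InsF replicate 1) and 10 (without InsF replicate 2) in InsF, 11 in InsG without InsG replicate 1, and 6 in InsH without InsH replicate 1. In each of these fits all calls were lower, except 1 of the 10 in InsF. Scaling by library sizes alone called 3 higher and 8 lower in InsF, while InsH had 2 higher and 9 lower. In the limma fit on log2(TPM + 1) 3 genes were higher in each of InsF, InsG and InsH, and 7, 9 and 8 were lower.

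RPS12 and RPL39L were called higher for the mean of the lines, where most called genes of the family were lower. Called or not, 33 of the 79 genes lay above control for the mean and 46 below. RPS12 (chr6:132814441-132817564, forward strand), a protein of the head of the small subunit, was 462 and 465 CPM in control, 494 and 482 in InsE, 537 and 529.9 in InsF, then 521 and 509.5 in InsG and 526 and 519 in InsH. All 8 line libraries were above both control libraries, those of InsE by the least. Its log2 change was 0.15 (SE 0.034) for the mean (edgeR adjusted p = 0.00955), 0.20 in InsF, 0.15 in InsG, 0.17 in InsH and 0.08 in InsE (adjusted p = 0.239). The calls were lost without either control library (edgeR adjusted p = 0.137 and 0.125 for the mean). RPL39L, a copy of RPL39 known mainly from the testis, was 58.5 and 58.6 CPM in control, 65.4 and 69.4 in InsE, 68.2 and 70.5 in InsF, with 61.8 and 67.8 in InsG and 66.5 and 68.3 in InsH. It was above both control libraries in all 8 line libraries, with a log2 change of 0.20 (SE 0.052) (edgeR adjusted p = 0.0197, and 0.171 and 0.151 without control replicate 1 and 2, and 0.0521 by DESeq2).

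**Figure D2:**
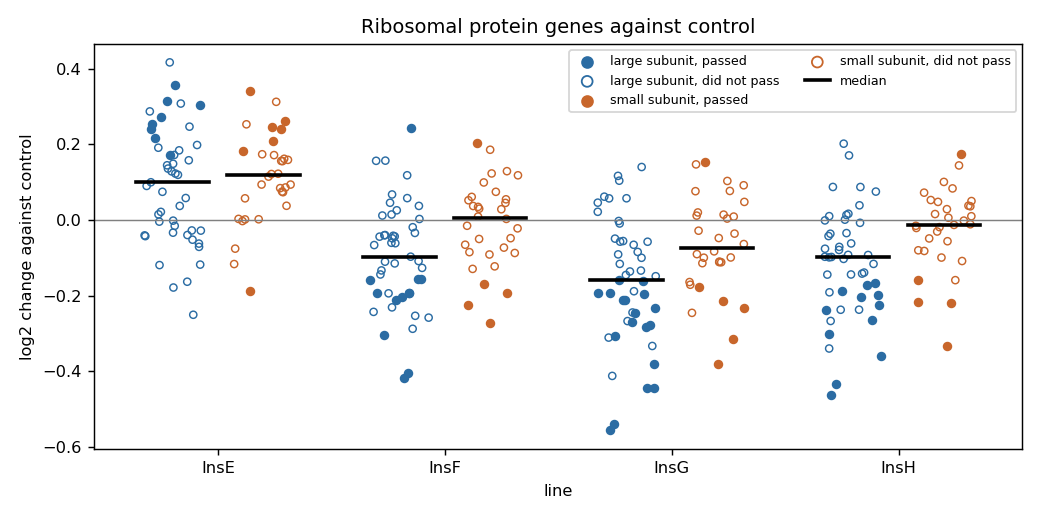
Log2 change against control of the 79 tested genes in each line (x axis), 1 point per gene, from edgeR. Filled points passed the threshold, open points did not, blue is the large subunit, orange the small subunit, and black bars are medians. Most filled points are above 0 in InsE (14 of 15) and below 0 in InsF (15 of 17), InsG (23 of 24) and InsH (16 of 17).

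InsE differed from the other lines in that its called genes were nearly all higher. In InsE 15 of 79 passed, 14 higher and 1 lower, where 23.2% of all genes passed (10.8% higher and 12.4% lower). Among the 14 were RPL5, RPL11, RPL13, RPL26, RPL27, RPL31, RPL34, RPL35A, RPS3, RPS15A, RPS19, RPS21 and RPS24, and the 1 lower was RPS27. None of the 14 was called lower in another line. The median log2 change was 0.11 over all 79, 0.10 in the large and 0.12 in the small subunit, against 0.01 over all genes. Both InsE libraries were above both control libraries for 49 of 79 genes and below them for 11, a count not made over all genes. In the edgeR fit 58 of the 79 genes lay above control in InsE, as did 7948 of all 15554 genes. The number passing, 15 in the main fit, varied with the libraries used. The count was 3 without control replicate 1, 5 without control replicate 2, 6 without InsE replicate 1 and 13 without InsE replicate 2. Scaling by library sizes alone gave 29, all higher, and with limma on log2(TPM + 1) it was 10, 8 higher and 2 lower. The shares of all genes passing in these alternative fits are not given, so their counts are not read as particular to the family.

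RPL34 (chr4:108620566-108630412, forward strand) had the largest rise of the genes called in InsE. Its level was 91.7 and 92.5 CPM in control, 117 and 118 in InsE, 98.1 and 91.6 in InsF, then 101 and 87.8 in InsG and 95.3 and 88.4 in InsH. The InsE libraries stood above every other library. The log2 change was 0.36 (SE 0.075) (edgeR adjusted p = 0.00821), a rise of 27.9%, and the call was lost without either control library (0.0742 and 0.0631). RPS21 was 267 and 272 CPM in control, 358 and 322 in InsE, 326 and 285 in InsF, with 309 and 268 in InsG and 304 and 291 in InsH. Here replicate 1 of InsF was above replicate 2 of InsE, so the lines overlapped. Its log2 change in InsE was 0.34 (SE 0.086) (edgeR adjusted p = 0.0194), lost without either control library (0.131 and 0.103) and without InsE replicate 1 (0.146).

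RPL26, a large-subunit protein, was 521 and 527 CPM in control, 683 and 619.8 in InsE, 607 and 561 in InsF, then 576 and 514 in InsG and 582 and 531 in InsH. Its log2 change in InsE was 0.31 (SE 0.075) (edgeR adjusted p = 0.015), lost without either control library (0.11 and 0.0947) or InsE replicate 1 (0.12). RPL31, at the mouth of the exit tunnel, had log2 0.30 (SE 0.06) (edgeR adjusted p = 0.00616), lost without control replicate 2 (0.0789) or InsE replicate 1 (0.0604). RPL13 was 625 and 647 CPM in control, 757 and 779 in InsE, 635 and 648 in InsF, with 597 and 619 in InsG and 628 and 645 in InsH. The InsE libraries stood above every other library, and the log2 change of 0.27 (SE 0.046) (edgeR adjusted p = 0.00266) held when each library was left out in turn. RPS15A was called both in InsE, at log2 0.24 (SE 0.049) (edgeR adjusted p = 0.00703), and in the mean, at 0.12 (SE 0.039) (adjusted p = 0.0458). With limma on TPM the InsE call of RPL26 was not kept (adjusted p = 0.0536). For RPS15A neither call held without a control library, with adjusted p of 0.0629 and 0.0769 in InsE and 0.234 and 0.326 in the mean (edgeR, without control replicate 1 and 2), and the mean gave 0.0716 by DESeq2 and 0.187 with no filter on low counts.

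Differences among the 4 lines need no control library for their direction. The test of any difference among InsE, InsF, InsG and InsH passed for 22 of 79 genes, 16 large and 6 small, where 13.2% of all genes passed. Same-numbered libraries of the lines deviated together, as described with the replicates below, and with a replicate block this count was 70, where 35.0% of all genes passed. Without the block, the count was 8 without InsE replicate 1 and 8 without InsE replicate 2, and it was 11 and 12 without control replicate 1 and 2, which enter through the shared estimate of the spread. A comparison of InsE with the mean of the other 3 lines was added after the data were seen. It passed for 47 of 79 genes, all higher in InsE (33 large, 14 small), where 24.2% of all genes passed (11.4% higher and 12.8% lower). The median log2 difference was 0.19 over the 79, 0.22 in the large and 0.15 in the small subunit, against 0.01 over all genes. With a replicate block it was 71, of which 70 were higher in InsE, where 38.2% of all genes passed. Without the block this count was 21 without InsE replicate 1, 29 without InsE replicate 2, and 34 and 39 without control replicate 1 and 2. With limma on log2(TPM + 1) it was 18, of which 17 were higher in InsE. For the fits in this paragraph that left out a library or used limma, the share of all genes passing is not given. A lower count in them does not show that this family was more sensitive than other genes.

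InsE was the highest line for most of the 79 genes within each replicate number. In replicate 1, InsE was the highest of the 4 lines for 73 of 79 genes and the lowest for 2, with a median log2 difference from the other lines of 0.19. In replicate 2 it was the highest for 74 and the lowest for 2, with a median of 0.18. For 72 genes InsE was highest in both. Over the 5 groups, InsE had the highest mean CPM for 54 genes, control for 21 and InsF for 4, while InsG had the lowest for 50. None of these rank counts was made over all tested genes, so they are not read as particular to the family.

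**Figure D3:**
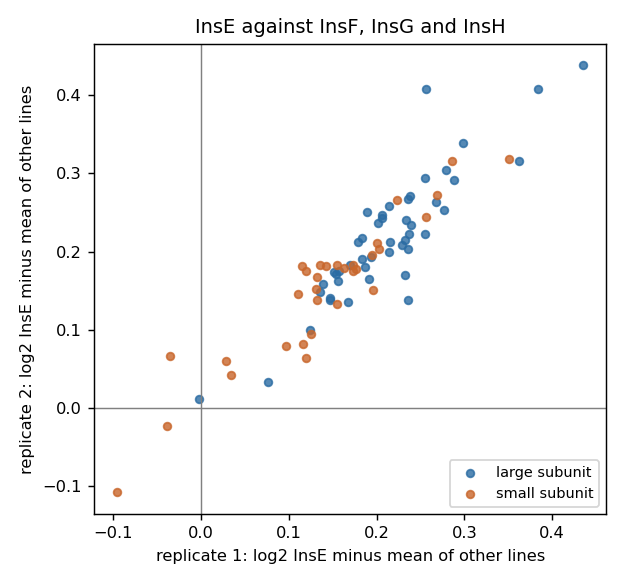
Log2 difference between InsE and the mean of InsF, InsG and InsH for the 79 genes, computed within replicate 1 (x axis) and within replicate 2 (y axis). Blue points are large-subunit and orange points small-subunit genes, and grey lines mark 0. In replicate 1, 75 genes lie above 0 and in replicate 2, 77. The same differences within a replicate were not computed for all tested genes.

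By p, the leading 5 genes in the test among the lines were RPL35A, RPL11, RPS24, RPL6 and RPL32. RPL35A (chr3:197949980-197956610, forward strand), a large-subunit protein mutated in some families with Diamond-Blackfan anaemia, was 219 and 227 CPM in control, 267 and 264 in InsE, 206 and 201 in InsF, then 203 and 199 in InsG and 206 and 197 in InsH. InsE was above control and the other 3 lines below it, with no overlap between these sets of libraries. The test among the lines gave an edgeR adjusted p of 0.000995, and InsE exceeded the other lines by log2 0.40 (SE 0.039). RPL11 (chr1:23691742-23696835, forward strand), which with RPL5 and 5S ribosomal RNA forms a particle that can bind MDM2, was 320.5 and 325 CPM in control, 378 and 385 in InsE, 316 and 311 in InsF, with 299 and 296 in InsG and 307 and 305 in InsH. InsE was again the highest, and InsF, InsG and InsH lay below both control libraries. Its adjusted p among the lines was 0.00166 by edgeR, with InsE higher than the others by log2 0.32 (SE 0.035).

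RPS24 (chr10:78033732-78056813, forward strand), another small-subunit gene of Diamond-Blackfan anaemia, was 707 and 699.8 CPM in control, 829.6 and 839.7 in InsE, 655 and 666 in InsF, then 646 and 676 in InsG and 652 and 678 in InsH. The InsE libraries stood above all others, and those of InsF, InsG and InsH below control. Its edgeR adjusted p among the lines was 0.00168, and its InsE call against control held when each library was left out. RPL6 was 823 and 803 CPM in control, 858 and 873 in InsE, 714 and 709 in InsF, with 705 and 698 in InsG and 702 and 714 in InsH, so InsE lay slightly above control and the other lines below it. RPL32 was 468 and 464 CPM in control, 484 and 486 in InsE, 413 and 423 in InsF, then 385 and 383 in InsG and 408 and 409.7 in InsH, in the same order of InsE, control and the rest. The edgeR adjusted p among the lines was 0.0023 for RPL6 and 0.00316 for RPL32. For these 5 genes the call among the lines held in every fit that left out 1 library, though with limma on TPM RPL32 was not called among the lines (adjusted p = 0.0543) nor RPS24 in InsE (0.0558).

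**Figure D4:**
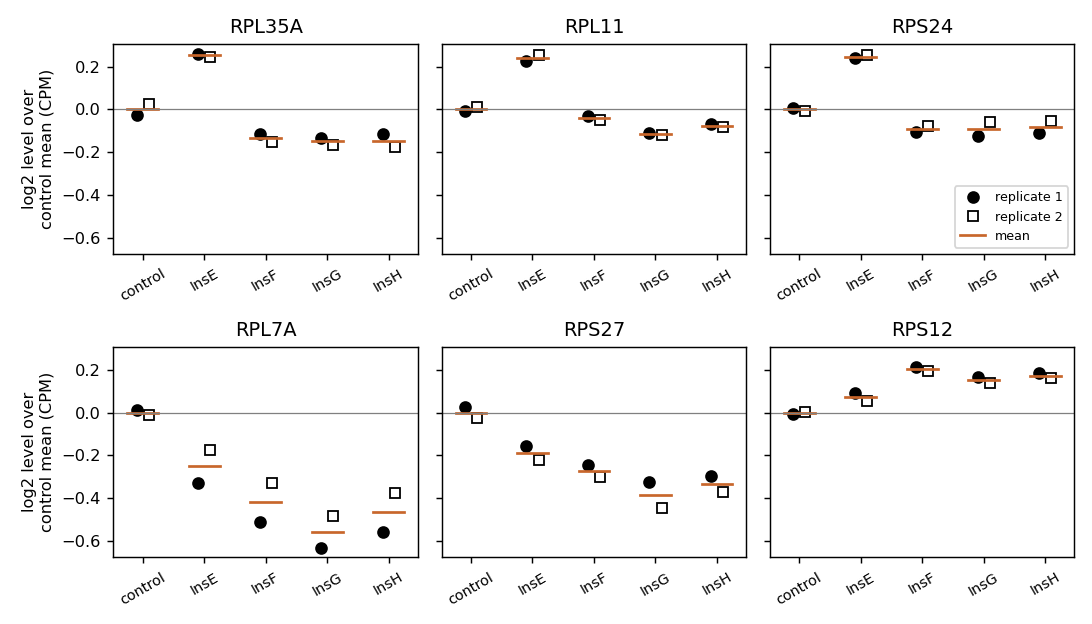
Log2 CPM of 6 genes in each library relative to the mean of the control libraries (y axis, shared by all panels), by group (x axis). Filled circles are replicate 1, open squares replicate 2 and orange lines group means. RPL35A, RPL11 and RPS24 are high in InsE, RPL7A and RPS27 are below control in all 4 lines, and RPS12 is above control in all 4.

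A further 7 genes were chosen, for their role or for the size of their difference, after their values were seen, as were RPL36 and RPL23A in the account of the replicates. RPL5, the partner of RPL11, was 379 and 378 CPM in control, 431 and 420.4 in InsE, 376 and 358 in InsF, with 386 and 369 in InsG and 377 and 358 in InsH and differed by log2 0.17 (SE 0.051) in InsE (edgeR adjusted p = 0.0375, and 0.188, 0.188, 0.183 and 0.0743 without control replicate 1, control replicate 2, InsE replicate 1 and InsE replicate 2). In the stalk, the base RPLP0 changed by -0.05, -0.06, -0.16 and -0.10 in InsE, InsF, InsG and InsH, of which InsG passed (edgeR adjusted p = 0.032, and 0.157 and 0.164 without control replicate 1 and 2). RPLP1 had -0.03, -0.21, -0.27 and -0.20 in the same order, with the last 3 passing, and without control replicate 2 these gave edgeR adjusted p of 0.132, 0.0703 and 0.168. RPLP2 had 0.15, 0.01, -0.06 and -0.01 and passed in none. RPL12, which binds at the foot of the stalk, had -0.06, -0.25, -0.38 and -0.27 and passed in InsG (edgeR adjusted p = 0.0119, and 0.0692 and 0.0778 without control replicate 1 and 2). RPS6, the substrate of S6 kinase and a common readout of mTOR activity at the protein level, had 0.11, -0.05, -0.08 and -0.06, none of which passed. With limma on TPM the calls of RPL5 (0.43), RPLP0 (0.345), RPLP1 (0.421, 0.394 and 0.4) and RPL12 (adjusted p = 0.0591) did not pass. RPL37 showed the widest gap between InsE and the other lines, log2 0.44 (SE 0.079) (edgeR adjusted p = 0.0035, and 0.0631 without InsE replicate 1), at 356 and 365 CPM in control, 468 and 411 in InsE, 359 and 309 in InsF, then 328 and 279 in InsG and 352 and 324 in InsH.

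For the duplicate copies that were expressed, the values stand here beside those of their partners. RPS27L was 22.4 and 26 CPM in control, 27 and 25 in InsE, 25.3 and 22.9 in InsF, with 25.8 and 24.8 in InsG and 23.6 and 23.9 in InsH, and its libraries overlapped between groups. Its log2 change for the mean of the lines was 0.05 (SE 0.07) (edgeR adjusted p = 0.664), beside -0.29 for RPS27. RPL39, a protein of the exit tunnel, was 229 and 237 CPM in control, 278 and 251 in InsE, 237 and 218 in InsF, then 232 and 205 in InsG and 237 and 217 in InsH, and had a mean change of 0.01 (SE 0.063) (adjusted p = 0.962), beside 0.20 for RPL39L (edgeR). The difference between copies was not tested. In InsE against the other lines RPL39 was higher by 0.24 and RPL39L by 0.00. RPL3, RPL10 and RPS10, partners of copies at or near 0 counts, had mean changes of -0.04, -0.11 and -0.00, of which that of RPL10 passed (edgeR adjusted p = 0.0361, and 0.284 and 0.171 without control replicate 1 and 2 0.251 with library sizes alone and 0.154 with limma on TPM). RPL3L had 9 counts in control and 8, 6, 3 and 2 in InsE, InsF, InsG and InsH, too few to compare.

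Processed pseudogenes are near-identical copies of these mRNAs, so that reads may fit either. The tables held 407 rows named as pseudogenes of 68 of the genes, of which 177 had a count. Their counts were 0.951% to 0.971% of the combined counts of genes and pseudogenes in control and 1.16% to 1.35% in the lines. The highest shares over all libraries were 10.2% for RPS2 (mostly RPS2P5), 8.63% for RPL9, 6.68% for RPL41, 5.79% for RPL13, 5.40% for RPL23A and 5.01% for RPSA. For RPL41 the share was 13.7 and 13.1 percent in control, 1.81 and 12.3 in InsE, 1.83 and 11.7 in InsF, with 1.91 and 12.5 in InsG and 2.04 and 12.3 in InsH. The 4 replicate 1 libraries of the lines were thus low, and the other 6 libraries lay between 11.7 and 13.7 percent. For RPS2 it was 5.70 and 5.82 percent in control, 12.9 and 6.12 in InsE, 14.1 and 7.10 in InsF, then 13.7 and 7.01 in InsG and 12.9 and 6.41 in InsH, the same 4 libraries being high. RPL13, called higher in InsE above, had 4.33 and 4.16 percent in control, 6.47 and 4.75 in InsE, 6.61 and 5.23 in InsF, with 6.92 and 4.70 in InsG and 6.74 and 4.92 in InsH, a smaller change in the same direction as RPS2. The level of RPL41, 522 and 519 CPM in control, 617 and 554 in InsE, 579.8 and 510.2 in InsF, then 534 and 466 in InsG and 554 and 498 in InsH, was also highest in replicate 1 within each line. With pseudogene counts added to those of their genes, the numbers passing were 24 for the mean of the lines, 20 in InsE, 20 in InsF, 25 in InsG, 19 in InsH, 25 among the lines and 52 for InsE against the rest, each within 1.5 times of those above.

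The replicate number went with large differences within the lines, though not within control. Replicate 2 minus replicate 1 ranged from -0.32 (RPL23A) to 0.43 (RPL36) on the log2 scale as the mean over the 4 lines. Of 79 genes, 63 had the same sign in all 4 lines, 33 higher and 30 lower in replicate 2, a count not made over all tested genes. The SD of these differences over the 79 genes was 0.137 in InsE, 0.132 in InsF, 0.134 in InsG, 0.134 in InsH and 0.0412 in control. Between any pair of lines they correlated with Pearson's r of 0.91 to 0.95 over the 79 genes, against 0.39 to 0.46 over all 15554 tested genes, and with the control difference at 0.08 to 0.14. These are correlations across genes, which are not independent replicates. The 79 genes and all tested genes were not matched for expression level, which was mostly high in the family. Replicate 1 of every line was also the more deeply sequenced. In a fit of the 4 lines with a term for the replicate number, added after the data were seen, 60 of 79 genes differed between replicate numbers, 31 higher and 29 lower in replicate 2, where 39.4% of all genes differed. RPL36 was higher in replicate 2 and RPL23A lower, and neither passed in any comparison between groups (edgeR adjusted p of 0.297 and 0.268 for the mean of the lines).

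GC content went with this replicate difference. The transcripts of the 79 genes ranged from 41.2% to 62.8% GC with a median of 49.8%. Across the 79 genes, Pearson's r between GC content and the replicate difference in the lines was 0.60 (Spearman's rho 0.575), and it was 0.09 for the replicate difference in control. For the change of the mean of the lines against control r was -0.27, and for InsE against the other lines -0.08. The mean change of the lines against control correlated with their replicate difference at r of -0.54, and InsE against the other lines at -0.15, the libraries being shared in both cases. The median effective length of the genes was 443 to 449 bases in replicate 1 of the lines, 414 to 424 in replicate 2 and 423 to 425 in control. What part GC content or fragment length had in the comparisons with control was not tested.

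**Figure D5:**
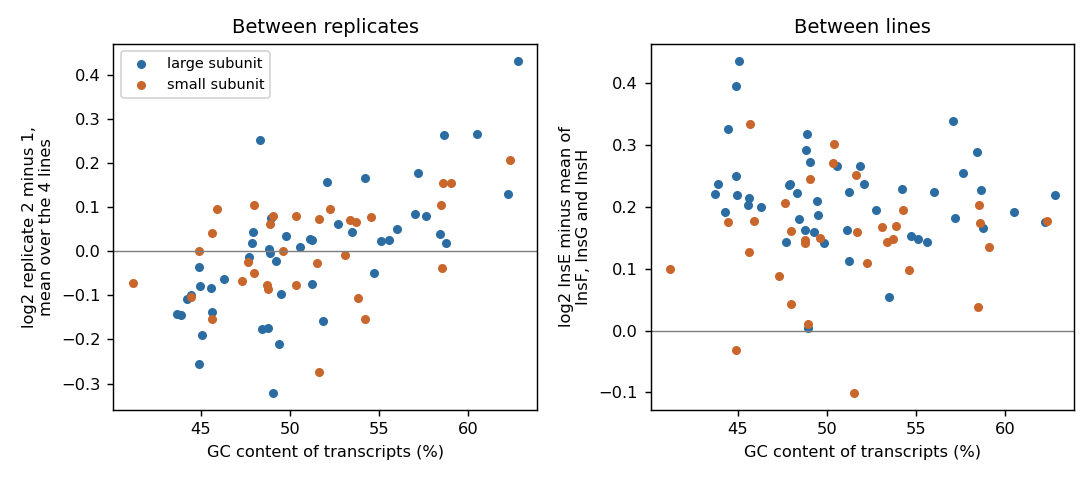
GC content of the transcripts (x axis, percent) against the log2 difference of replicate 2 from replicate 1, averaged over the 4 lines (left), and against the log2 difference of InsE from the mean of InsF, InsG and InsH (right), 1 point per gene (n = 79). On the left, points rise with GC content (r = 0.60), and on the right they do not (r = -0.08).

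Other genes of the pathway were read from lists. Of 8 further ribosome-associated genes, 0 passed for the mean of the lines by edgeR, 0 had an unadjusted p under 0.05 and 0 passed by DESeq2. RACK1, a scaffold on the small subunit, was 772 and 773 CPM in control, 836 and 848 in InsE, 747 and 771 in InsF, with 694 and 726 in InsG and 738 and 775 in InsH. InsE was again the highest, by log2 0.18 (SE 0.037) over the other lines (edgeR adjusted p = 0.00689, and 0.221 with limma on TPM).

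Of 48 ribosome assembly genes tested, 21 were lower and none higher for the mean of the lines by edgeR, where 14.5% of all genes were lower, with a median log2 change of -0.14 against 0.01 over all genes. The other 27 did not pass. In InsE 2 were higher and 15 lower (10.8% and 12.4% of all genes), and DESeq2 called 2 and 12. In InsF 17 were lower by edgeR and 10 by DESeq2, and in InsH 15 and 8. MDN1, which drives maturation of the large subunit, was 89.8 and 88.6 CPM in control, 55.4 and 52.3 in InsE, 45.4 and 47.6 in InsF, then 46.6 and 41.6 in InsG and 47 and 44.5 in InsH. No line library came near the control values. Its log2 change was -0.91 (SE 0.052) (edgeR adjusted p = 3.8e-06), though on log2(TPM + 1) InsE differed from control by 0.10 with limma (adjusted p = 0.759). POLR1A, the largest subunit of RNA polymerase I, which makes ribosomal RNA, was lower by log2 -0.47 (SE 0.039) (edgeR adjusted p = 3.2e-05), and NOP56, a core protein of box C/D small nucleolar particles, by -0.43 (SE 0.062) (adjusted p = 0.000957).

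Of 16 translation factors and other genes whose mRNAs carry a TOP tract, 4 were lower and none higher for the mean of the lines, where 27.6% of all genes passed, so that this share was near the background. In InsE 3 were higher and 2 lower, where 23.2% of all genes passed. EEF1A1, the factor that brings aminoacyl-tRNA to the ribosome, was 7503 and 7410.0 CPM in control, 6645 and 6631 in InsE, 6597 and 6566 in InsF, with 6435 and 6456 in InsG and 6528 and 6565 in InsH. It was lower in all 8 line libraries than in control, by log2 -0.19 (SE 0.027) (edgeR adjusted p = 0.00091, and 0.113 with limma on TPM). PABPC1, which binds poly(A) tails, changed by -0.26 (SE 0.031) (edgeR adjusted p = 0.000275) and HNRNPA1, an RNA-binding protein, by -0.22 (SE 0.031) (adjusted p = 0.000775). Of 9 small nucleolar RNA host genes, 2 were higher and none lower for the mean by edgeR, and 5 were higher in InsE, against 0 and 4 by DESeq2, and 13.1% and 10.8% of all genes were higher in these comparisons. SNHG12 had log2 0.33 (SE 0.07) (edgeR adjusted p = 0.00726, and 0.114 without control replicate 2), and SNHG8 0.31 (SE 0.094) (adjusted p = 0.0366, and 0.18 and 0.226 without control replicate 1 and 2).

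Of 15 growth control genes, 5 were lower and none higher for the mean, where 27.6% of all genes passed and 14.5% were lower. MYCN, a MYC family transcription factor that drives ribosome synthesis, was 234 and 246 CPM in control, 245 and 248 in InsE, 103 and 101 in InsF, then 125 and 128 in InsG and 121 and 132 in InsH. The InsE libraries were at the control level, and InsF, InsG and InsH were far below it. Its log2 change was 0.04 in InsE (edgeR adjusted p = 0.641), -1.23 (SE 0.058) in InsF, -0.92 (SE 0.057) in InsG and -0.93 (SE 0.058) in InsH, and the test among the lines gave an adjusted p of 6.36e-06. No relation between MYCN and the ribosomal protein genes was tested. TSC1, an inhibitor of mTOR signalling, had log2 -0.31 (SE 0.049) (edgeR adjusted p = 0.00142) and RPTOR, a subunit of mTOR complex 1, -0.25 (SE 0.078) (adjusted p = 0.0385, and 0.225 and 0.19 without control replicate 1 and 2).

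The mitochondrial ribosomal proteins, encoded in the nucleus for a separate ribosome, were called in both directions for the mean of the lines, with 8 of 77 higher and 8 lower (median 0.02), where 13.1% and 14.5% of all genes were higher and lower. In InsE 10 were higher and none lower (median 0.09), where 10.8% of all genes were higher, and against the other lines 13 were higher and none lower (median 0.09), where 11.4% were. DESeq2 called 3 and 7 higher in these comparisons. In the comparison with the other lines the cytosolic genes had 47 of 79 higher and a median of 0.19. There 5 of 9 small nucleolar RNA host genes (median 0.32) were also higher by edgeR, with none lower. The same held for 6 of 16 TOP translation factors (0.09) and 3 of 8 further ribosome-associated genes (0.12). DESeq2 called 3, 7 and 2 of these lists higher. Of 48 ribosome assembly genes 5 were higher and 5 lower by edgeR, and of 15 growth control genes 3 and 2. MRPS11 and MRPL24 were lower in the mean, at log2 -0.33 (SE 0.1) and -0.31 (SE 0.098), and MRPS31 higher, at 0.28 (SE 0.082), all with edgeR adjusted p between 0.0321 and 0.0421 and none passing without a control library (edgeR).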

How the data were processed

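RNA sequencing of polyadenylated RNA covered 10 libraries of the GIST-T1 cell line, 2 for the control and 2 for each of 4 insulator-disrupted lines. Per the submitters' processing notes, the tools were STAR 2.5.3, RSEM 1.3.2 and DESeq2 1.38.3, and hg38 was the build. Neither the annotation release nor the strand setting of the counts is given in the sources used here. The gene tables deposited by the authors hold RSEM expected counts, which are estimated and not whole because RSEM divides reads that fit several genes, and TPM, which the authors' tool scales by effective length to a fixed sum. Of a further deposited table, 10 columns of per-sample values were not used because their names did not match 1 sample each.

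Expected counts were rounded and tested with edgeR 4.0.16 (limma 3.58.1, R 4.3.3), by the quasi-likelihood test on all 10 libraries in 1 fit of 5 groups with 5 residual degrees of freedom, TMM normalisation and a minimum count of 10, which left 15554 genes. Benjamini-Hochberg adjustment ran over those genes, and all tests were two-sided. Log2 CPM used a prior count of 2, and the limma alternative log2(TPM + 1). DESeq2 1.42.0 was an alternative. Other alternatives were library sizes alone, TMM without the ribosomal protein genes, no filter on low counts, pseudogene counts added, a replicate block and each library left out. No label names separate cultures within a group, and p-values therefore measure only the spread between libraries, which may be technical. On simulated counts for InsE against control (15273 genes), edgeR recovered 2% of genes with a 1.15-fold change, 12% at 1.25-fold, 52% at 1.5-fold and 86% at 2-fold, with 5 false calls. The changed genes were drawn from all genes, not from this family, and the rest were left unchanged. The family had a smaller spread between libraries (median coefficient of variation 0.048 against 0.074 over all genes). Its smallest called change in InsE was log2 0.17, so these shares do not describe it.

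Gene positions are those of GENCODE release 29, to which 83 of 83 genes matched by identifier, and sequences are from RefSeq on GRCh38.p14. The members and lists were chosen with earlier results of these data known. Named genes were, for each comparison with control and for the mean of the lines, up to 5 called genes that rose most and 5 that fell most, the 5 with the smallest p among the lines, the 3 highest and 3 lowest control levels in each subunit, detected copies ending in L with their partners, and up to 3 called genes of each other list. Single values of a few genes are not reported here. RPL5, RPLP0, RPLP1, RPLP2, RPL12, RPS6, RPL37, RPL36 and RPL23A, the comparison of InsE with the other lines, the replicate term and the fits with 1 replicate number were added after the data were seen.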

Additional observations from a re-analysis of the deposited data

Results flagged for a closer look

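Differences between the lines were found by the test among InsE, InsF, InsG and InsH, in which the control libraries enter only through the shared estimate of the spread. Of the 79 ribosomal protein genes tested, 22 passed this edgeR test. Among the genes named above, RPL35A had an adjusted p of 0.000995, RPL11 of 0.00166, RPS24 of 0.00168, RPL6 of 0.0023, RPL32 of 0.00316, RPL13 of 0.00364 and RPL29 of 0.0064 (edgeR). In each of these InsE was the highest line, while RPL29 was below control in InsE as well. RPL3 had 0.0164, RPL37 0.021, RPL15 0.0266, RPL34 0.0287 and RPL5 0.0434 (edgeR adjusted p), again with InsE the highest line. These 5 calls did not hold when 1 library was left out. Without InsE replicate 1 the adjusted p was 0.0574 for RPL3, 0.197 for RPL37, 0.226 for RPL15, 0.186 for RPL34 and 0.264 for RPL5, and without control replicate 1 it was 0.0539, 0.0555, 0.0795, 0.0741 and 0.115 in the same order (edgeR). Calls were also lost without InsE replicate 2 (RPL3, RPL15, RPL34, RPL5), control replicate 2 (RPL37, RPL15, RPL34, RPL5), InsF replicate 2 (RPL15, RPL5), InsH replicate 2 (RPL34, RPL5) and, for RPL5, InsF replicate 1 or either InsG library, with adjusted p of 0.0513 to 0.148. With limma on log2(TPM + 1) RPL5 had 0.503 and RPL3 0.135. Outside the family, the scaffold RACK1 had 0.0293, the polymerase subunit POLR1A 0.0425 and the transcription factor MYCN 6.36e-06 in the same edgeR test. Leaving out 1 library ended the POLR1A call in 9 fits, all but that without InsG replicate 2 (adjusted p of 0.0525 to 0.238), and the RACK1 call in 5, those without either control library, either InsE library or InsG replicate 1 (0.0745 to 0.13), and limma gave 0.274 for RACK1. For MYCN the InsE libraries were at the control level, and those of InsF, InsG and InsH were between 101 and 132 CPM. No group had enough libraries to look for 1 that stood apart from the others of its group.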

How the results depend on the processing

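The number of ribosomal protein genes passing depended on how the replicate number was treated and on single libraries. The share of all genes passing moved as well. It rose with a replicate block among the lines and for InsE against the other lines, as given above. For most other alternative fits, here and above, the share of all genes is not given. Their counts are therefore not read as results about the family. With a replicate block in edgeR the counts were 42 for the mean of the lines (12 higher, 30 lower), 47 in InsE, 37 in InsF, 46 in InsG, 35 in InsH, 71 for InsE against the other lines and 70 among the lines. Same-numbered libraries deviated together among the lines (r of 0.39 to 0.46 over 15554 genes) and little with control (0.003 to 0.043), and all 10 correlations between groups were positive. No label says that a number marks a shared day, batch or sequencing run, and whether the numbers pair the line libraries was not settled by these values. With a replicate term in the 4 lines alone the counts were 60 (23 higher, 37 lower), 63, 56, 61, 53, 75 and 75 in the same order. Fits with 1 library per line, which assume that it varies like the control libraries, gave 66, 64, 54, 63, 56, 74 and 75 for replicate 1 and 55, 51, 51, 51, 45, 69 and 68 for replicate 2.

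Library sizes alone gave 29 in InsE and 11 in both InsF and InsH, and no filter on low counts gave 39 among the lines. With limma on log2(TPM + 1) there were 15 for the mean, 10 in InsF, 12 in InsG, 11 in InsH, 18 for InsE against the others and 7 among the lines. For the ribosomal protein genes, DESeq2, TMM without the family and added pseudogenes kept each count within 1.5 times. Leaving out 1 library gave 3 to 22 for the mean, 3 to 18 in InsE, 2 to 19 in InsF, 8 to 25 in InsG, 2 to 18 in InsH, 21 to 46 for InsE against the others and 8 to 20 among the lines.

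Relative to control, the large-subunit sum was 1.10 in InsE and 0.968 in InsF as a share of expected counts, and 1.06, 0.934, 0.892 and 0.922 in InsE, InsF, InsG and InsH as CPM. The small-subunit sum was 1.11 in InsE and 1.02 in InsF by counts, and 1.07, 0.982, 0.945 and 0.976 by CPM, so that of InsF and InsH changed side with the scale.

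Of the values of single genes over all settings, 6448 kept direction and side of the threshold, 688 newly passed, 414 no longer passed and 10 changed sign. With replicate 1 of the lines alone the log2 change was 0.049 for RPL37 in the mean, 0.036 for RPL41 in InsG and -0.062 for RPL8 in InsF. With replicate 2 alone it was -0.072 for RPL39, -0.046 for RPL41 and 0.047 for RPL8 in the mean, 0.024 for RPL8 in InsH, -0.11 for RPL23A in InsG and 0.10 for RPL36 in InsE. With limma on TPM it was 0.10 for MDN1 in InsE. With 2 libraries per group, the many genes that did not pass cannot be called unchanged. The simulation, drawn from all genes, does not give the share of small changes in this family that would be recovered.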
